A study of Mus musculus with 29 samples.

Results

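The genes described here are 10 genes of the mammalian circadian clock, out of 55401 gene rows counted in mesenchymal cells sorted from around the mouse common bile duct. They were taken by symbol from the count tables: the 8 genes Dbp, Tef, Hlf, Nr1d1, Nr1d2, Per1, Per2 and Per3, called the output arm below, and the 2 activators Arntl and Npas2. The set was chosen because of how its levels differ between the groups of these samples, so levels and differences of the 10 genes are given as a description, without tests.

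RNA-seq was done on 29 libraries in 9 groups, each from about 1000 sorted cells of 1 animal's common bile duct. All animals carried a tamoxifen-inducible Cre (CreERT2) and a Rosa26 reporter that makes the red fluorescent protein tdTomato after Cre removes a stop cassette. In 6 libraries the Cre was driven by Gli1, a gene that is switched on by Hedgehog signalling. Of these, 3 came from uninjured animals and 3 from animals on day 4 after bile duct ligation (BDL), a surgical blockage of bile flow. In the other 23 libraries the Cre was driven by Pdgfra, a fibroblast gene: 5 were wild type, 4 SmoFF, 3 SmoM2, 3 Ctnnb1FF, 2 Gli2FF, 2 Gli3FF and 4 Gli2FFGli3FF. Following mouse nomenclature, FF is taken to mean that both copies of the named gene are flanked by loxP sites and are lost where Cre acts. SmoM2 is known as an always-active variant of Smo, the membrane protein that passes the Hedgehog signal inward. Gli2 and Gli3 are transcription factors of that pathway, and Ctnnb1 encodes beta-catenin. The labels give neither the animals' age nor, in the parts used here, the time of day of collection, and name no sham operation for the uninjured animals. Clock transcripts vary over the day, and the part of collection time in the differences below was not tested.

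The circadian clock is a feedback loop of transcription that runs in nearly every cell. Arntl (BMAL1) pairs with Clock or its relative Npas2 and switches on genes that carry an E-box, among them the Per and Cry genes, whose proteins then block the pair. The nuclear receptors Nr1d1 and Nr1d2 (REV-ERB alpha and beta) are switched on by the same pair and repress Arntl and Npas2 through a motif called RORE, so their transcripts and those of Arntl tend to peak at opposite times of day. Dbp, Tef and Hlf are bZIP transcription factors that carry the rhythm to other genes through a motif called the D-box.

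On the mm10 build, with GENCODE M21 gene models, all 10 genes are protein coding. The D-box factors lie at chr7:45705088-45710203 on the plus strand (Dbp), chr15:81802421-81826863 on the plus strand (Tef) and chr11:90336536-90390895 on the minus strand (Hlf). Nr1d1 spans chr11:98767932-98775333 and Nr1d2 chr14:18204054-18239127, both on the minus strand. Per1 spans chr11:69095217-69109960 on the plus strand, Per2 chr1:91415982-91459324 and Per3 chr4:151003652-151044665, both on the minus strand. Arntl spans chr7:113207465-113314126 and Npas2 chr1:39193731-39363236, both on the plus strand.

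RefSeq promoter windows on GRCm38.p6, each 250 bases before to 50 bases after a transcript start, matched 9 of the 10 genes, all but Per2, in 12 windows. The windows were searched on both strands for the E-box CACGTG, the D-box TTATGTAA or TTACGTAA, the cyclic AMP response element (CRE) TGACGTCA and the RORE, with no motif overlapping another. Shown are the parts that hold the E-box of Tef and Per1, the D-boxes of Per3 and the RORE of Arntl, the motifs through which the loop described above works, with the motif in capitals. The first 3 are the 250 bases before the start at chr15:81802423-81802672 on the plus strand (Tef), chr11:69098699-69098948 on the plus strand (Per1) and chr4:151044666-151044915 on the minus strand (Per3), and the last is 30 bases at chr7:113207530-113207559 on the plus strand (Arntl).
Tef: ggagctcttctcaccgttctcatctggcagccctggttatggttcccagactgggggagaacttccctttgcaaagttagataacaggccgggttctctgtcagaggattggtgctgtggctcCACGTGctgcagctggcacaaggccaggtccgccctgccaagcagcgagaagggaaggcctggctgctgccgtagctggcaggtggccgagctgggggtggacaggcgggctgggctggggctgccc
Per1: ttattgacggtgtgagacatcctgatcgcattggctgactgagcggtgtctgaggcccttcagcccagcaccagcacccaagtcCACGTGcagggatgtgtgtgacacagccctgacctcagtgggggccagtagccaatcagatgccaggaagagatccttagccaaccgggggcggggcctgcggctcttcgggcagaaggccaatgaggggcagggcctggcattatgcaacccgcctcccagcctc
Per3: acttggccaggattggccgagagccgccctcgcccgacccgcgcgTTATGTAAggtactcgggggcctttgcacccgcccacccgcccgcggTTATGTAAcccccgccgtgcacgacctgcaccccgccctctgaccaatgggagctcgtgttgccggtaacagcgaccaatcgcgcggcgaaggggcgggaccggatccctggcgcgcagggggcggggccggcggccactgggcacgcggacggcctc
Arntl: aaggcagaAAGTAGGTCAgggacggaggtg
The E-box begins 127 bases before the start of Tef and 166 bases before that of Per1. A second Tef window, at chr15:81811164-81811463, also held an E-box. A second Per1 window, at chr11:69099902-69100201, held no motif of the search. The other Arntl window and the windows of Dbp, Nr1d1, Nr1d2 and Npas2 held none either. Per3 held its 2 D-boxes 205 and 158 bases before the start, and the RORE of Arntl lay 28 bases after the start. Hlf held a CRE 9 bases before its start. Among all 32851 windows of this length, 7.15% held the E-box, 1.06% the D-box, 0.773% the RORE and 1.79% the CRE. A match is a run of letters and not a shown binding site, and a window without one says nothing about the factor.

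Total counts were 15021796 to 38301189 per library. Each library came from an individual animal, so the spread between replicates is that of animals and their libraries together. The sorted cells carried the fibroblast markers: the summed level of Pdgfra, Col1a1, Col3a1, Dcn, Lum and Pdgfrb was 24201 to 33449 CPM (read counts scaled to a common library size) in wild type, 16572 to 18976 in SmoFF and 36034 to 42540 in Gli3FF. Of the targeted genes, those of SmoFF (Smo at 7.88 ± 0.918 CPM, SD, n = 4, against 29.6 ± 5.96, n = 5, in wild type) and Gli3FF (Gli3 at 13.4 ± 1.45, n = 2, against 36.4 ± 6.31) were lower than in wild type. In Gli2FFGli3FF, Gli2 and Gli3 differed from wild type by -1.87 (SE 0.42) and -2.65 (SE 0.31) on the log2 scale, and the Hedgehog target Ptch1 was at 302 ± 73 CPM in SmoM2 (n = 3) against 30.8 ± 6.55. Ctnnb1 in Ctnnb1FF (43.3 ± 5, n = 3, against 58.5 ± 5.13) and Gli2 in Gli2FF (9.86 ± 4.16, n = 2, against 17.7 ± 3.22) did not pass the test across all genes. In 7 of the 29 libraries both Xist, made in female cells, and the Y-linked Ddx3y were above 1 CPM, although the labels give 1 animal per library: SmoFF replicates 1 and 4, Gli2FF 2, Gli3FF 2 and Gli2FFGli3FF 1, 3 and 4. Wild type replicate 5 carries SmoFF in its description but wild type in its title and genotype, and it is kept as wild type here. In sorted bulk RNA, fewer cells of a type and less RNA per cell cannot be told apart.

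Levels below are CPM over library sizes scaled by the TMM method, with the Gli1 and the Pdgfra libraries scaled separately. Differences are log2 differences fitted by edgeR, with a standard error (SE), of a genotype minus wild type or of ligated minus uninjured. The 6 genotype comparisons share the same 5 wild type libraries. Per length, as CPM per kilobase of exon, Nr1d1 had the highest wild type mean of the 10 genes at 16.1, followed by Npas2 at 6.05, Per1 at 5.24 and Arntl at 5.05. The lowest were Hlf at 0.342 and Dbp at 0.302. In Gli3FF the same measure put Nr1d1 at 91.2, Per1 at 22.4, Nr1d2 at 14.9 and Dbp at 9.73.

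**Figure D1:**
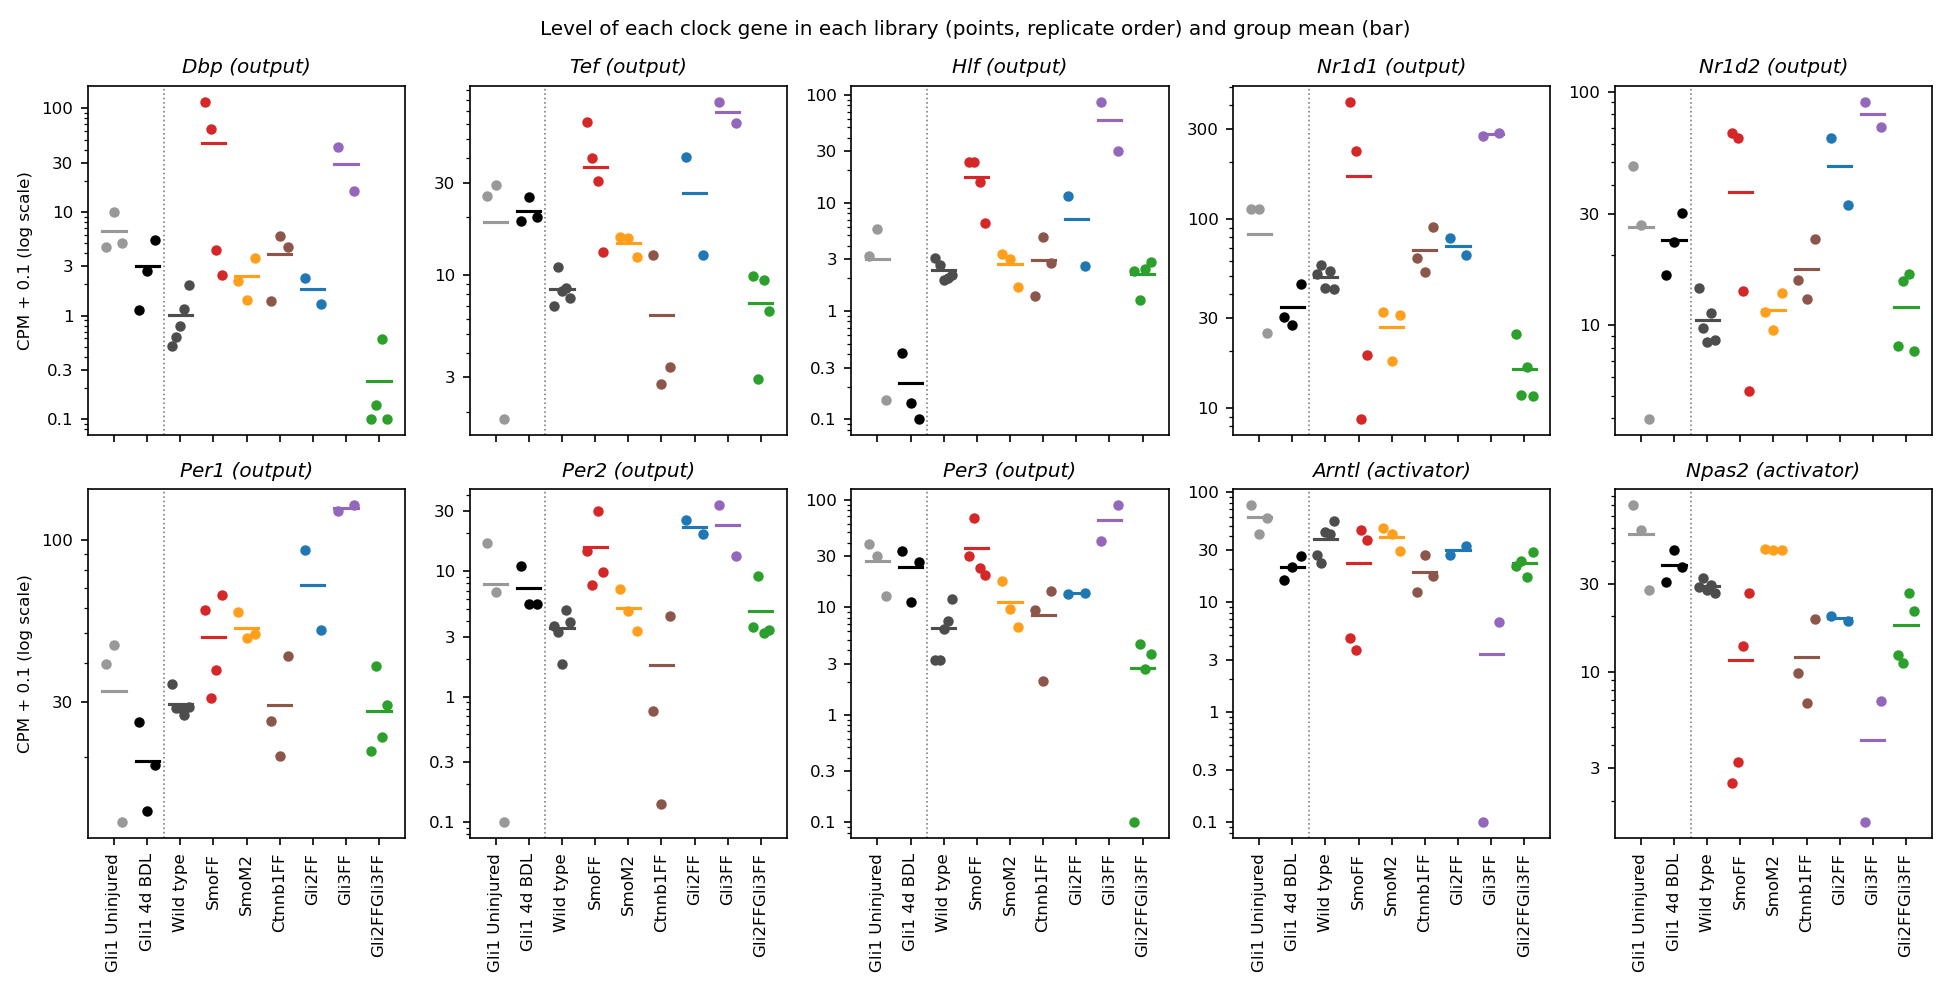
Level of each of the 10 clock genes in every library, as CPM + 0.1 on a log scale that differs between panels. Points are libraries in replicate order, bars are group means, and the dotted line parts the Gli1 from the Pdgfra groups. Both Gli3FF points lie above every wild type point in all 8 output gene panels and below them for Arntl and Npas2, and the 4 SmoFF points are spread widely for Dbp, Nr1d1 and Arntl.

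Dbp was the member that varied over the widest range. In wild type replicates 1 to 5 Dbp was at 0.408, 0.514, 0.684, 1.05 and 1.86 CPM, from 11, 12, 16, 39 and 55 counts. In SmoFF replicates 1 to 4 it was at 116, 63.3, 4.18 and 2.37 CPM, and in Gli3FF at 42.3 and 15.98 CPM. Every SmoFF and Gli3FF library was above every wild type library, and within SmoFF replicates 1 and 2 were far above replicates 3 and 4. In Gli2FFGli3FF, which lacks both factors by its label, Dbp had 0, 1, 8 and 0 counts (0, 0.0378, 0.491 and 0 CPM), so that 3 of 4 libraries lay below all of wild type and replicate 3 lay within its range. The other genotypes lay between: 1.33 to 3.48 CPM in SmoM2, 1.29 to 5.80 in Ctnnb1FF and 1.19 to 2.23 in Gli2FF, each overlapping wild type. As group means, Dbp was at 46.4 ± 54.1 CPM in SmoFF (SD, n = 4), 29.1 ± 18.6 in Gli3FF (n = 2), 0.903 ± 0.587 in wild type (n = 5) and 0.132 ± 0.24 in Gli2FFGli3FF (n = 4). The fitted log2 difference from wild type was 5.66 (SE 0.95) in SmoFF, 4.99 (SE 0.99) in Gli3FF and -2.82 (SE 1.13) in Gli2FFGli3FF. These sizes depend on the few wild type counts: with wild type 1 to 3 as the only controls the SmoFF difference was 6.42, and with wild type 4 and 5 it was 4.99. Without SmoFF replicate 1 it was 4.70, and without wild type replicate 5 it was 6.10. Without Gli2FFGli3FF replicate 3, which holds 8 of the 9 counts of its group, the difference there was -5.33, a value that rests on near-zero counts.

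Tef and Hlf, the relatives of Dbp, moved within a narrower range and with less spread inside SmoFF. Tef was at 6.90 to 11.002 CPM in wild type (median 8.21), at 61.2, 39.8, 30.4 and 13.1 CPM in the 4 SmoFF replicates, and at 77.9 and 60.9 CPM in Gli3FF. All 4 SmoFF libraries and both Gli3FF libraries were above the highest wild type library. Hlf was at 1.84 to 3.01 CPM in wild type (median 2.06), at 23.8, 23.9, 15.7 and 6.38 CPM in SmoFF, and at 86.0 and 30.1 CPM in Gli3FF. Again no SmoFF or Gli3FF library reached down to wild type, and SmoFF replicate 4 was the lowest of its group for both genes. The log2 difference of Tef was 2.10 (SE 0.46) in SmoFF and 3.04 (SE 0.52) in Gli3FF, and that of Hlf was 2.93 (SE 0.49) and 4.67 (SE 0.57). In Gli2FF the 2 libraries disagreed: Tef was at 40.5 and 12.7 CPM and Hlf at 11.6 and 2.48 CPM, replicate 2 being near wild type. Without Gli2FF replicate 1 the difference of Hlf went from 1.62 to 0.09 and that of Tef from 1.65 to 0.56. Gli2FFGli3FF libraries were at 2.83 to 9.85 CPM for Tef and 1.17 to 2.74 CPM for Hlf, overlapping wild type for both. The group means were 7.12 against 8.43 CPM for Tef and 2.12 against 2.28 CPM for Hlf, differences within the spread of the libraries.

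Nr1d1, a repressor of the clock, divided the SmoFF libraries into high and low ones. In wild type replicates 1 to 5 Nr1d1 was at 51.0, 57.3, 42.9, 53.1 and 42.6 CPM. SmoFF replicates 1 to 4 were at 418, 228, 8.64 and 19.1 CPM, and the Gli3FF libraries at 275 and 287 CPM. SmoFF thus held the highest and the lowest Nr1d1 of all 23 Pdgfra libraries, 2 libraries above and 2 below the wild type range, while Gli3FF was uniform. Nr1d1 was below all of wild type in SmoM2 (32.0, 17.6 and 30.9 CPM) and in Gli2FFGli3FF (24.5, 11.6, 16.4 and 11.4 CPM), and above it in Gli2FF (79.7 and 64.6 CPM). In Ctnnb1FF it was at 62.2, 52.3 and 90.4 CPM, overlapping wild type. The fitted log2 difference was 2.51 (SE 0.71) in Gli3FF, -0.88 (SE 0.69) in SmoM2 and -1.63 (SE 0.64) in Gli2FFGli3FF. In SmoFF it was 1.77 (SE 0.62), a mean of libraries on both sides of wild type that went to 0.80 without replicate 1 and to 2.18 without replicate 3. Nr1d1 overlaps the gene Thra on the other strand, and the use of strand in counting is not given in the sources used here, so reads of the pair cannot be told apart in the shared stretch. Thra was at 117, 101, 104 and 149 CPM in the 4 SmoFF replicates, at 51.7 and 62.2 CPM in Gli3FF and at 90.05 to 122 CPM in wild type. The part of Thra reads in the Nr1d1 counts was not tested.

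Nr1d2, the closest relative of Nr1d1, showed a like division of SmoFF. It was at 66.2, 63.0, 13.9 and 5.13 CPM in the 4 SmoFF replicates against 8.34 to 14.4 CPM in wild type (median 9.63). Both Gli3FF libraries (90.4 and 70.6 CPM) and both Gli2FF libraries (63.2 and 32.7 CPM) were above wild type. SmoFF replicates 1 and 2 were above wild type, replicate 3 within its range and replicate 4 below it. The log2 difference was 2.95 (SE 0.55) in Gli3FF, 2.20 (SE 0.55) in Gli2FF and 1.83 (SE 0.48) in SmoFF. Unlike Nr1d1, Nr1d2 in Gli2FFGli3FF (7.65 to 16.5 CPM) and SmoM2 (9.49 to 13.7 CPM) overlapped wild type.

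Of the Per genes, the negative limb that shuts the activator pair down, Per1 and Per2 ordered the SmoFF libraries differently. Per3 was higher in replicates 1 and 2 than in replicates 3 and 4, as Dbp and Nr1d1 were. Per1 was at 59.3, 30.8, 38.0 and 66.0 CPM in the 4 SmoFF replicates, against 27.2 to 34.2 CPM in wild type (median 28.7). Per2 was at 14.3, 7.64, 30.04 and 9.68 CPM in SmoFF against 1.71 to 4.77 CPM in wild type (median 3.56). Per3 was at 30.2, 67.9, 23.1 and 19.8 CPM in SmoFF against 3.12 to 11.7 CPM in wild type (median 6.20). For Per2 and Per3 all 4 SmoFF libraries were above wild type, including replicates 3 and 4, in which Nr1d1 was low. Per1 was highest in SmoFF replicate 4 and Per2 in replicate 3. In Gli3FF, Per1 was at 123 and 129 CPM, Per2 at 33.4 and 13.1 CPM and Per3 at 41.6 and 89.2 CPM, all above wild type. In Gli2FF, Per1 was at 92.1 and 50.9 CPM, Per2 at 25.4 and 19.6 CPM and Per3 at 13.2 and 13.5 CPM, again above every wild type library. The log2 differences of Per1, Per2 and Per3 were 0.72 (SE 0.25), 2.17 (SE 0.67) and 2.48 (SE 0.65) in SmoFF. In Gli3FF they were 2.09 (SE 0.29), 2.77 (SE 0.76) and 3.37 (SE 0.74), and in Gli2FF 1.28 (SE 0.30), 2.72 (SE 0.76) and 1.08 (SE 0.76). Per1 was also above wild type in all 3 SmoM2 libraries, at 48.0 to 58.4 CPM. Per3 in Gli2FFGli3FF was at 0, 4.50, 2.58 and 3.54 CPM and Per2 in Ctnnb1FF at 0.672, 0.0392 and 4.30 CPM, the lowest group means of these genes among the Pdgfra groups, and both overlapped wild type. Per3 shares part of its locus with Camta1 on the same strand and Dbp with Sphk2 on the other. Camta1 was at 10.03 to 28.6 CPM in SmoFF and 9.55 to 16.01 in wild type, and Sphk2 at 5.33 to 20.6 and 5.005 to 12.1. The part of reads from these neighbours was not tested.

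Arntl and Npas2, the activators, went the opposite way to Nr1d1 in the libraries that stood out. Arntl was at 27.1, 22.6, 43.5, 41.6 and 55.2 CPM in wild type replicates 1 to 5. In SmoFF replicates 1 to 4 Arntl was at 4.68, 3.55, 44.98 and 36.9 CPM, and in Gli3FF at 0 and 6.52 CPM. SmoFF replicates 1 and 2 and both Gli3FF libraries were thus the 4 lowest of the 23, and SmoFF replicates 3 and 4 lay within the wild type range. Npas2 was at 28.8, 32.3, 27.7, 29.5 and 26.7 CPM in wild type, at 2.38, 3.17, 13.7 and 26.5 CPM in SmoFF and at 1.43 and 6.87 CPM in Gli3FF. All SmoFF libraries were below the lowest wild type library for Npas2, replicate 4 only just, and both Gli3FF libraries were far below. The log2 difference of Npas2 was -2.80 (SE 0.76) in Gli3FF and -1.34 (SE 0.53) in SmoFF, the latter -2.20 without replicate 4 and -1.03 without replicate 1. That of Arntl was -0.75 (SE 0.70) in SmoFF, -0.42 without replicate 2 and -1.34 without replicate 3. In Gli3FF it was -3.53 (SE 1.07), a value that depends on how the fit treats the library with 0 counts, and -2.54 without that library. Npas2 was above wild type in all 3 SmoM2 libraries, tightly so at 46.0, 45.4 and 45.5 CPM, and Arntl there overlapped wild type at 28.96 to 47.7 CPM. Npas2 was below wild type in Ctnnb1FF (9.75, 6.66 and 19.3 CPM) and Gli2FF (20.1 and 18.7 CPM). In Gli2FFGli3FF, with low Dbp and Nr1d1, Arntl was at 17.0 to 28.4 CPM and Npas2 at 11.1 to 26.7 CPM, group means under those of wild type, so the arms were not opposed in this genotype.

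**Figure D2:**
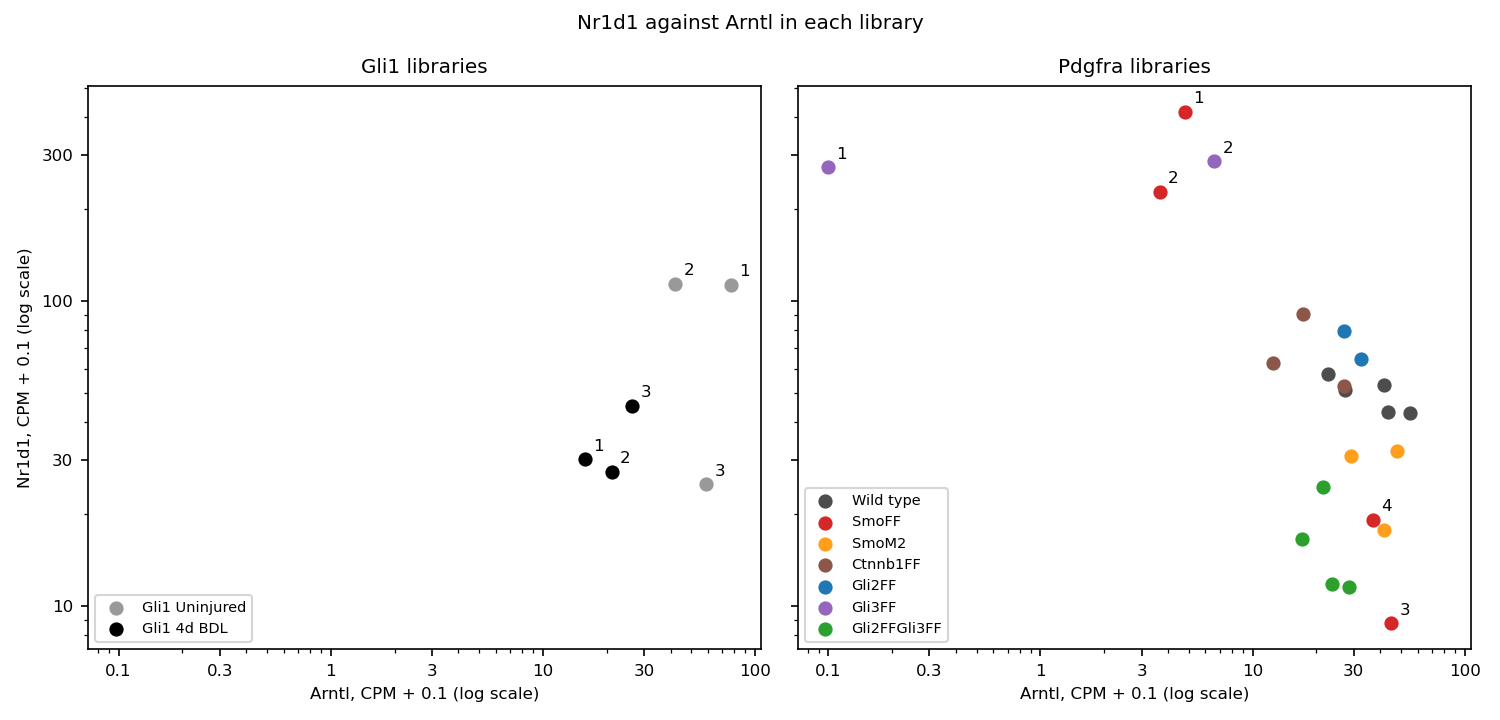
Nr1d1 against Arntl in each library, both as CPM + 0.1 on log axes, with Gli1 libraries on the left and Pdgfra libraries on the right. Replicate numbers are given for the Gli1, SmoFF and Gli3FF points. SmoFF 1 and 2 and both Gli3FF libraries sit at the upper left, with Nr1d1 at 228 to 418 CPM and Arntl at 0 to 6.52 CPM, and SmoFF 3 and 4 sit at the lower right.

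Within a library the ratio of 2 genes' counts does not depend on how libraries are scaled. The Nr1d1 to Arntl ratio was 0.773 to 2.54 in wild type. It was 89.2, 64.2, 0.192 and 0.516 in SmoFF replicates 1 to 4 and 44.0 in Gli3FF replicate 2. In Gli3FF replicate 1, with 6910 counts of Nr1d1 and none of Arntl, it was at least 2303 against a floor of 3 counts. So the 4 libraries with high Nr1d1 were more than an order of magnitude above every wild type ratio, and SmoFF replicates 3 and 4 were below every one. The ratio was 0.402 to 1.15 in Gli2FFGli3FF, 0.424 to 1.07 in SmoM2, 1.95 to 5.27 in Ctnnb1FF and 2.96 and 1.99 in Gli2FF. The ratio of Nr1d2 to Npas2 was 0.298 to 0.499 in wild type, 27.7, 19.9, 1.02 and 0.194 in SmoFF and 63.1 and 10.3 in Gli3FF. For this pair SmoFF replicate 3 was above wild type and replicate 4 below. It was also above every wild type library in Ctnnb1FF (1.21 to 1.94) and Gli2FF (3.15 and 1.75), at 0.358 to 1.39 in Gli2FFGli3FF and at 0.209 to 0.3003 in SmoM2. The ratio of Tef to Npas2 was 0.239 to 0.340 in wild type, 25.7, 12.6, 2.22 and 0.496 in SmoFF and 54.4 and 8.86 in Gli3FF, above wild type in every one of these libraries. It was above wild type in both Gli2FF libraries too (2.02 and 0.681), at 0.171 to 1.29 in Ctnnb1FF, 0.256 to 0.807 in Gli2FFGli3FF and 0.271 to 0.341 in SmoM2.

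**Figure D3:**
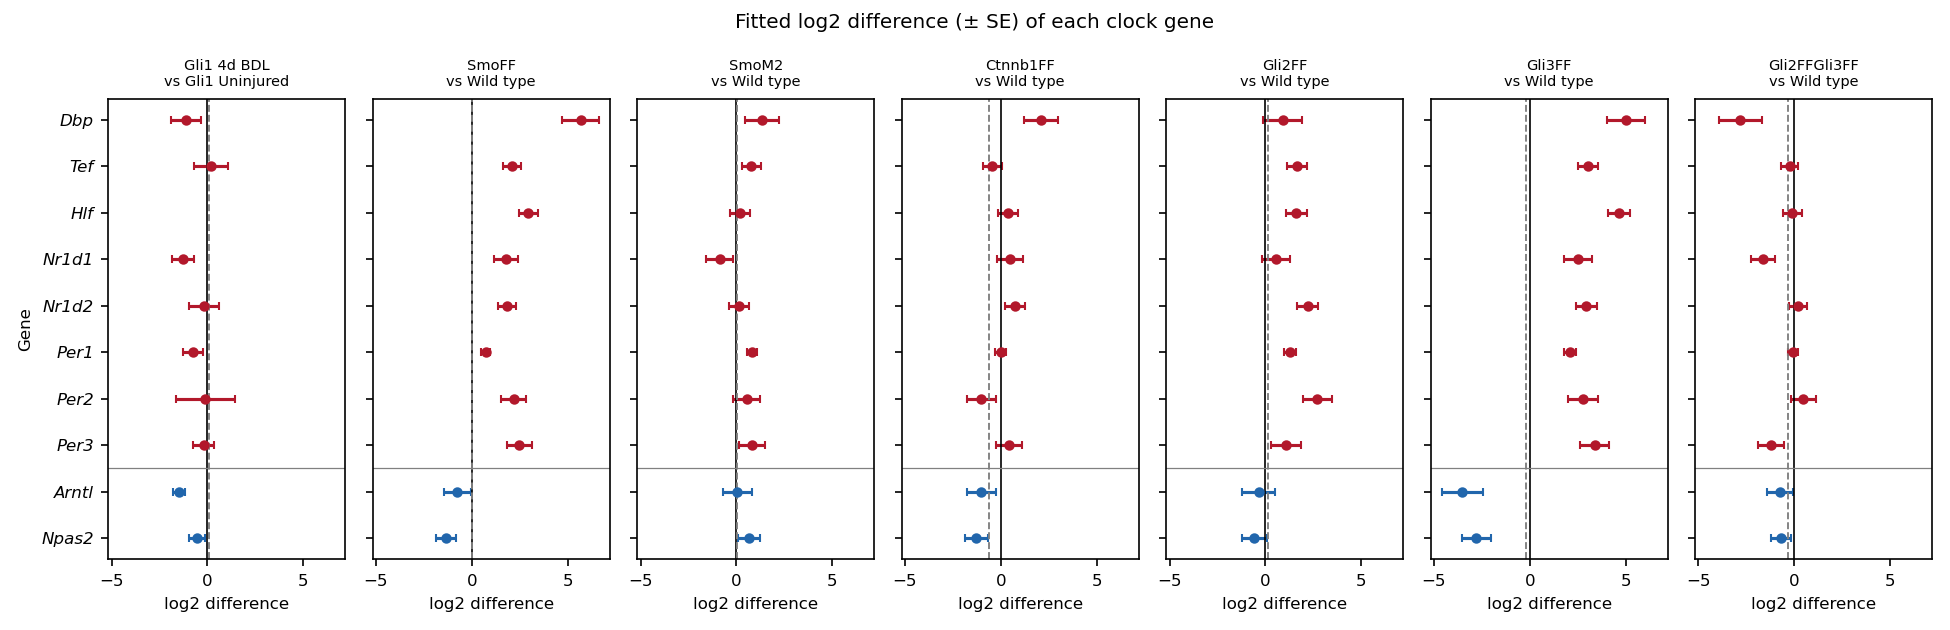
Fitted log2 difference of each clock gene in the 7 comparisons, with horizontal bars of 1 SE. Red marks the output arm and blue the activators, the solid line is 0 and the dashed line the median over all genes tested. In Gli3FF all 8 output genes lie at 2.09 to 4.99 and both activators below -2, and Hlf is missing in the ligation panel because it did not pass the low-count filter.

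Read by genotype, Gli3FF showed the arms apart in every member. The median log2 difference of the 8 output genes was 2.99 there, against -0.22 over all genes tested, and that of the activators was -3.17. In SmoFF the output median was 2.14 against 0.02 over all genes, and in Gli2FF 1.45 against 0.12. It was 0.67 against 0.02 in SmoM2, 0.38 against -0.61 in Ctnnb1FF and -0.18 against -0.35 in Gli2FFGli3FF. Among output genes, 8 of 8 in Gli3FF, 5 of 8 in SmoFF (Dbp, Tef, Hlf, Per2 and Per3) and 6 of 8 in Gli2FF (all but Dbp and Hlf) had every library above every wild type library. Over all genes tested, 10.8%, 2.03% and 21.0% were so placed in these comparisons. In SmoM2, Tef and Per1 were above and Nr1d1 below, where 4.19% of all genes were above and 4.22% below. In Gli2FFGli3FF only Nr1d1 of the output genes was apart from wild type, below it, as were 10.7% of all genes, with 8.75% above. No output gene was apart in Ctnnb1FF, where 9.99% of all genes were above and 15.2% below. Below wild type without overlap were both activators in Gli3FF (12.8% of all genes) and Npas2 in SmoFF (2.76%), Ctnnb1FF (15.2%) and Gli2FF (13.8%). The members were chosen on these same contrasts, so nothing is read from their counts against these shares.

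Ordered by group mean over the 7 Pdgfra groups, Gli3FF was highest for 7 of the 8 output genes, with SmoFF highest for Dbp, and lowest for both activators. Gli2FFGli3FF was lowest for Dbp, Hlf, Nr1d1, Per1 and Per3, and Ctnnb1FF for Tef and Per2. Nr1d2 was lowest in wild type. Most neighbours in these orders overlapped. Gli3FF stood clear of the next group below for Dbp (above Ctnnb1FF), Hlf (above SmoFF), Nr1d2 and Per1 (both above Gli2FF), and for Arntl it lay clear below Ctnnb1FF. SmoFF stood clear above SmoM2 for Per2 and above Gli2FF for Per3. Wild type lay clear below SmoM2 for Tef and Npas2, clear above SmoM2 for Nr1d1, and clear above Gli2FF for Npas2.

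**Figure D4:**
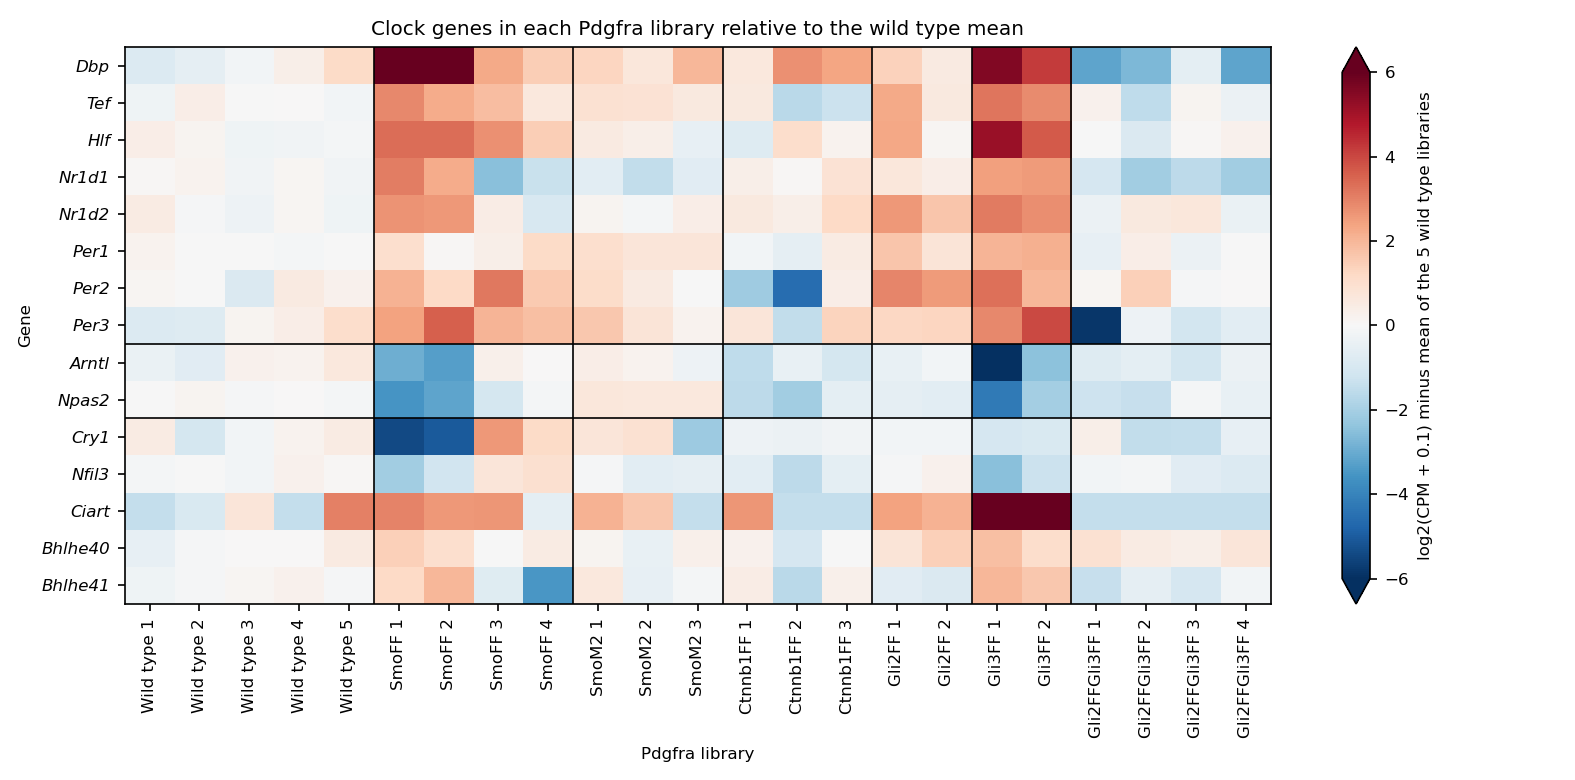
The 10 members and 5 further clock genes in each Pdgfra library, as log2(CPM + 0.1) minus the mean of the 5 wild type libraries, with colours limited at 6 and -6. Rows are genes and columns libraries, and vertical lines part the genotypes. SmoFF 1 and 2 and Gli3FF 1 and 2 share a pattern of red output genes above blue activators and blue Nfil3, while SmoFF 3 and 4 show blue Nr1d1 and faint red Nfil3.

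The 4 SmoFF libraries differed among themselves across the clock. Ranked from the highest of the 23 Pdgfra libraries, SmoFF replicate 1 had 8 of the 8 output genes among the top 5, replicate 2 had 6, replicate 3 had 3 and replicate 4 had 1. Both activators were among the bottom 5 in replicates 1 and 2 and neither was in replicates 3 and 4. Gli3FF replicates 1 and 2 had 8 and 7 output genes among the top 5, and both activators among the bottom 5. In Gli2FFGli3FF 4 to 5 of the 8 output genes were among the bottom 5 in each library. SmoFF replicate 4, like replicate 1, held transcripts of both sexes, and replicates 2 and 3 did not (Xist at 252, 0.0296, 0 and 390 CPM), and the part of this in the clock levels was not tested. The share of reads on the ribosomal RNA locus was 29.6, 10.2, 12.0 and 23.3% in SmoFF replicates 1 to 4. The number of genes detected was 20583, 22957, 20870 and 21844 in the same order. In wild type these measures were 13.4 to 29.4% and 21127 to 24483 genes. Gli3FF replicate 1, the library without Arntl counts, had 39.1% and 17544 genes, and replicate 2 had 24.5% and 22143. The Gli2FFGli3FF libraries, some with 0 counts of Dbp or Per3, had 38.4 to 50.03% and 17508 to 20055 genes. Ctnnb1FF had 28.02 to 34.4% and 15892 to 17726 genes. The part of either measure in the clock levels and in these 0 counts was not tested. The summed immune markers were 265, 6.48, 5.94 and 13.3 CPM in SmoFF replicates 1 to 4. Of the 6 fibroblast markers, 3 (Col1a1, Col3a1 and Lum) were called lower in SmoFF and 0 higher, where 1.55% of all genes were called. At an unadjusted p under 0.05 in edgeR 6 of the 6 were lower. The 7 mesothelial markers summed to 385 to 780 CPM in SmoFF and 127 to 245 CPM in wild type, with 0 of 7 called. At the same unadjusted threshold 4 of the 7 were higher and 0 lower. In Gli3FF the mesothelial markers summed to 28.1 to 35.5 CPM, with 3 of 7 (Msln, Wt1 and Lrrn4) called lower. Over all genes tested 4.45% were called in Gli3FF, the share that goes with this and the following Gli3FF marker calls. The 8 smooth muscle markers summed to 188 to 216 CPM in Gli3FF against 55.8 to 82.5 CPM in wild type, with Des alone called, as higher. At an unadjusted p under 0.05 in edgeR 3 of the 8 were higher and 2 lower, and Cnn1 had no counts in Gli3FF. The 6 bile duct epithelial markers summed to 7.54 to 21.2 CPM in Gli3FF against 48.6 to 70.1 CPM in wild type, with Krt19 and Krt7 called lower. Krt7, Epcam and Cdh1 had no counts in either Gli3FF library. The 7 endothelial markers summed to 3.82 to 5.96 CPM in Gli3FF and 1.63 to 5.61 CPM in wild type, with Kdr called lower. Of these, Cdh5, Tie1 and Emcn had no counts in any library of either group, and Pecam1 and Kdr none in Gli3FF. The 8 immune markers summed to 14.4 to 32.8 CPM in Gli3FF and 7.32 to 98.5 CPM in wild type, with 0 of 8 called. Smooth muscle marker sums were also above those of wild type in SmoM2 (269 to 282 CPM), Ctnnb1FF (85.2 to 247), Gli2FF (87.4 to 192) and Gli2FFGli3FF (176 to 413). Of the 8, 1 was called in SmoM2, as higher (0.205% of all genes called), and 0 in Gli2FF (5.84%). In Ctnnb1FF 3 were called higher and 1 lower (19.9%), and Cnn1 had no counts there. In Gli2FFGli3FF 3 were called higher and 0 lower (17.2%). Mesothelial marker sums were below those of wild type in Ctnnb1FF (17.6 to 97.04), with 3 of 7 called lower and 0 higher. The part of these markers in the clock differences was not tested.

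After group means were removed, the members fell into sets that moved together from library to library. Over the 23 libraries, which share 7 group means and include the strongly divided SmoFF group, Pearson's r of log2 CPM deviations was 0.81 for Dbp and Nr1d2, 0.78 for Nr1d1 and Nr1d2, 0.75 for Dbp and Nr1d1 and 0.73 for Arntl and Npas2. Dbp went against the activators, with r of -0.54 for Arntl and -0.64 for Npas2, and Nr1d1 against Arntl with -0.56. The Per genes stood aside from Dbp, with r of -0.13 for Per1, -0.10 for Per2 and 0.24 for Per3, while Per1 and Per2 gave 0.53 with each other. Without the 2 libraries farthest from the median of the first gene of each pair, r was 0.65 for Dbp and Nr1d2, 0.81 for Nr1d1 and Nr1d2, 0.58 for Dbp and Nr1d1 and 0.69 for Arntl and Npas2. It was -0.43 for Dbp and Arntl, -0.35 for Dbp and Npas2, -0.44 for Nr1d1 and Arntl and 0.32 for Per1 and Per2, so each of these relations but that of Nr1d1 and Nr1d2 was weaker without those libraries. These correlations are a description of the libraries.

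In the Gli1 libraries Arntl was lower after ligation, and the output arm overlapped between the groups. Arntl was at 76.6, 42.0 and 58.9 CPM in the uninjured libraries and at 15.7, 21.0 and 26.4 CPM on day 4 of ligation, with no overlap. The log2 difference was -1.49 (SE 0.31), in a comparison where 15.0% of all genes tested had every ligated library below every uninjured one and 22.3% the reverse. Arntl was the only one of the 9 fitted members apart in this way. Npas2 was at 80.0, 58.7 and 27.6 CPM uninjured and 30.6, 45.8 and 37.0 CPM ligated, overlapping. Nr1d1, the repressor of Arntl, was not higher with lower Arntl: it was at 113, 114 and 24.9 CPM uninjured and 30.2, 27.5 and 45.2 CPM ligated. Dbp was at 4.53, 9.95 and 4.88 CPM uninjured and 1.04, 2.57 and 5.204 CPM ligated. Uninjured replicate 3 stood apart from the other 2 in the output arm, with Tef at 1.73 CPM against 25.5 and 28.99, Hlf at 0.0509 against 3.15 and 5.66, Nr1d2 at 3.87 against 48.0 and 26.7, and Per2 at 0 against 16.7 and 6.67. It also held summed mesothelial markers of 1058 CPM and bile duct epithelial markers of 512 CPM, the highest of its group. Hlf was near 0 in all 3 ligated libraries (0.312, 0.0415 and 0 CPM) and did not pass the low-count filter. The median log2 difference of the 7 fitted output genes was -0.20 against 0.07 over all genes. Without uninjured replicate 3, Nr1d1 differed by -1.71 in place of -1.29, and Tef by -0.34 in place of 0.19. The sign of Nr1d2, Per2 or Per3 changed when other libraries were left out. Marker genes of other cell types also differed between the groups. The 8 smooth muscle markers summed to 63.6 to 139 CPM uninjured and 4114 to 4922 CPM ligated, with 4 of 8 called higher and 0 lower by edgeR's test, and the 7 mesothelial markers to 258 to 1058 and 75.8 to 96.2 CPM, with 5 of 7 called lower and 0 higher, where 13.6% of all genes were called. The 6 fibroblast markers summed to 31197 to 37012 CPM uninjured and 51572 to 56604 CPM ligated, with 3 of 6 called higher and 2 lower. The part of these shifts in the clock differences was not tested.

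The other 38 clock genes of 3 lists, members of the loop, enzymes that modify clock proteins, and known targets of the clock, were tested with edgeR's quasi-likelihood test and Benjamini-Hochberg adjustment over all genes. These lists were written with earlier results of these data known. In Gli3FF 4 of 38 rose and 0 fell, where 4.45% of all genes tested were called. Bhlhe40, a repressor that competes for E-boxes, rose from 25.4 to 68.4 CPM (log2 difference 1.43, SE 0.35, adjusted p = 0.0198). Wee1, a cell cycle kinase gene with E-boxes, rose by 1.73 (SE 0.44, adjusted p = 0.0238), Pdk4, a kinase gene of fuel choice in mitochondria, by 2.88 (SE 0.64, adjusted p = 0.00852) and Tspan4 by 1.37 (SE 0.21, adjusted p = 0.000316). Without Gli3FF replicate 1 there was 1 call. Ciart, a repressor of the activator pair, was at 18.5 and 18.1 CPM in Gli3FF against 0, 0.0428, 0.342, 0 and 2.06 CPM in wild type, and did not pass (log2 difference 5.21, SE 1.80, adjusted p = 0.12). Nfil3, which competes with Dbp, Tef and Hlf for the D-box, was at 6.48 and 14.9 CPM in Gli3FF and 32.8 to 44.1 CPM in wild type (log2 difference -1.80, SE 0.57, adjusted p = 0.0782).

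In SmoFF 0 of the 38 passed, with 1.55% of all genes called, 4 of 38 higher and 1 lower at an unadjusted p under 0.05, and 1 called by DESeq2. The same division of libraries was seen in genes that are no members. Cry1, a partner of the Per proteins and a known target of the REV-ERB repressors, was at 0.0442, 0.0888, 37.4 and 13.6 CPM in the 4 SmoFF replicates, against 2.91 to 8.68 CPM in wild type. Replicates 1 and 2 were thus below every wild type library and replicates 3 and 4 above, and the fitted difference of 0.97 (SE 0.97, adjusted p = 0.762 in edgeR) averages over them. Nfil3 was at 8.79, 17.0, 61.1 and 71.8 CPM in these replicates, again on both sides of wild type. Bhlhe41 ran the other way at 49.9, 87.0, 13.3 and 1.83 CPM against 18.3 to 26.1 CPM in wild type. Clock, the partner of Arntl, was at 33.5, 42.8, 79.0 and 55.3 CPM in SmoFF and 31.5 to 66.9 CPM in wild type, replicate 3 alone lying outside that range.

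In Ctnnb1FF 1 of 38 rose and 6 fell, where 19.9% of all genes were called and the median over all genes was -0.61. Pdk4 rose by 3.21 (SE 0.60, adjusted p = 0.000526 in edgeR), and Usp2, which encodes a deubiquitinase of clock proteins, had a log2 difference of -2.11 (SE 0.49, adjusted p = 0.00418). Among the others that fell were Fbxw11 and Gsk3b, which modify clock proteins, Ncor1, a corepressor that the REV-ERB receptors recruit, and Por, which encodes the electron donor of cytochrome P450 enzymes. Without Ctnnb1FF replicate 2 there were 3 calls, and without replicate 3 there were 4. In Gli2FF 3 of 38 passed, where 5.84% of all genes did: Pdk4 rose by 2.99 (SE 0.64, adjusted p = 0.00619) and Sirt1, a deacetylase of clock proteins, by 2.49 (SE 0.62, adjusted p = 0.0173), and Tspan4 fell. None remained without Gli2FF replicate 1. In Gli2FFGli3FF 2 rose (Csnk1a1 and Tfrc) and 4 fell (Por, Tspan4, Btrc and Rora), where 17.2% of all genes were called. There were 3 calls without Gli2FFGli3FF replicate 2, without wild type replicate 3 or without wild type replicate 4. Ciart had no counts in any of these 4 libraries. In SmoM2 0 of 38 passed, with 0.205% of all genes called, 2 higher at an unadjusted p under 0.05, and 0 by DESeq2.

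After ligation 2 of 37 tested clock genes rose and 3 fell, where 13.6% of all genes were called. Cry2 fell from 28.2, 37.7 and 22.8 CPM in the uninjured libraries to 7.12, 5.18 and 4.68 CPM (log2 difference -2.38, SE 0.36, adjusted p = 0.0122 in edgeR). Rora, which activates Arntl through the RORE, had a log2 difference of -1.05 (SE 0.22, adjusted p = 0.027), and Wee1 of -1.94 (SE 0.43, adjusted p = 0.0304). Csnk1a1, a kinase gene, and Tspan4 rose by 0.62 (SE 0.16, adjusted p = 0.0453) and 1.25 (SE 0.25, adjusted p = 0.0252). None of the 5 was called without ligated replicate 2 or without ligated replicate 3. Cry1, Clock, Bhlhe40, Bhlhe41, Nfil3 and Ciart did not pass. Cry1 was at 8.42 to 9.13 CPM in the ligated libraries and at 3.50, 9.60 and 36.2 CPM in the uninjured ones, its high value being in uninjured replicate 3, the library with low Nr1d1 and Nr1d2.

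Per1 and Per2 are also known as fast-responding genes of cell stimulation and of glucocorticoid hormone, so 2 lists of such genes without the members are given beside them. The summed level of 25 immediate early genes was 2891 to 5354 CPM in wild type, 8047 to 9573 in Gli2FF, where 13 rose and 0 fell (5.84% of all genes called), and 3205 to 7207 in Gli3FF, where 5 rose and 1 fell (4.45% of all genes called). In SmoFF it was 4190, 4278, 6497 and 6762 CPM in replicates 1 to 4, higher in replicates 3 and 4, in which Nr1d1 was low. Of the 25 genes Ier3 alone was called in SmoFF, as higher (1.55% of all genes called). At an unadjusted p under 0.05 in edgeR 12 of them were higher and 0 lower. The 15 glucocorticoid-responsive genes summed to 1111 to 1433 CPM in wild type and 2526 to 3128 in Gli2FF, where 7 rose and 0 fell. In Gli3FF they summed to 1826 to 2154 CPM, where 3 rose and 0 fell. In SmoFF they summed to 1317 to 2152 CPM, where 0 were called (1.55% of all genes called). At an unadjusted p under 0.05 in edgeR 7 of the 15 were higher there and 0 lower. In Ctnnb1FF they summed to 2181 to 3679 CPM and 8 rose and 0 fell (19.9% of all genes called). Per1 and Per2 overlapped wild type there, Per1 at a mean of 29.3 CPM against 29.5 CPM. Their log2 differences were -0.01 (SE 0.27) and -1.04 (SE 0.76), where the median over all genes was -0.61. In Gli2FFGli3FF the glucocorticoid-responsive genes summed to 1508 to 2497 CPM, where 3 rose and 1 fell (17.2% of all genes called). In SmoM2 they summed to 1169 to 1258 CPM, where 0 were called (0.205% of all genes called). At an unadjusted p under 0.05 in edgeR 2 were higher and 4 lower in SmoM2. The 25 immediate early genes summed to 4072 to 6534 CPM in SmoM2, where 0 were called and Per1 was above every wild type library. At the same unadjusted threshold 12 of the 25 were higher there and 0 lower. They summed to 3284 to 3835 CPM in Ctnnb1FF, where 4 rose and 3 fell, and to 3652 to 5984 CPM in Gli2FFGli3FF, where 5 rose and 1 fell. In the Gli1 libraries the immediate early genes summed to 10696 to 13343 CPM uninjured and 3336 to 3906 CPM after ligation, where 2 rose and 15 fell (13.6% of all genes called), and the glucocorticoid-responsive genes to 2326 to 4500 and 835 to 2819 CPM, where 1 rose and 2 fell. Pdk4 stands both on the hormone list and among the clock targets above. Dusp1 stands on both the immediate early and the hormone list, and the rises in Gli2FF count it in each. The part of these responses in the levels of the Per genes was not tested.

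The genes most like Dbp and Arntl were sought among 8095 genes whose log2 CPM averaged 3 or more, by Pearson's r of log2 CPM over the 23 Pdgfra libraries. For Dbp the highest were Bmp4 (0.73), Il15ra, Trappc6b and Por (0.71 each) and Ist1 (0.68), and the lowest Dram1 (-0.74), Khdrbs3 (-0.73) and Eda2r (-0.72). Without SmoFF replicates 1 and 2, the libraries farthest from the median of Dbp, r with Bmp4 was 0.80. After group means were removed, Pfn2 (0.85), Arhgef6 and Kazald1 (0.80 each) were highest, and Trp53bp1 (-0.81) and Nfil3 (-0.79) lowest. Nfil3, the competitor for the D-box, gave -0.61 without the 2 farthest libraries. For Arntl the highest were Exoc4 (0.88), Tap1 (0.84) and Adamts4 (0.83), and the lowest Cgrrf1 (-0.76), Prdx6 and Lgals3 (-0.74 each). The likeness of Exoc4 went to 0.58 without SmoFF replicate 2 and Gli3FF replicate 1. After group means were removed, Denn2b (0.92) and Jun (0.85) were highest for Arntl and Prdx6 (-0.86) lowest. These likenesses are the extremes of a search over all those genes and are given as a description of these 23 libraries, which share depth differences and group structure.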

How the data were processed

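The values are whole-number read counts that the authors deposited unnormalized, without molecular identifiers, in tables of 55401 gene rows. The cDNA protocol was of the Smart-seq3 type with Smart-seq2 oligonucleotides and enzymatic fragmentation, per the labels' protocols. Reads were placed on mm10, per the submitters' processing notes. Aligner, counter, annotation and strand setting: not given in the sources used here. Repeated symbols (110) stayed separate, and the ribosomal RNA locus (2.37 to 50.03% of counts) was kept in library sizes.

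Counts were fitted in R 4.3.3 by the quasi-likelihood method of edgeR 4.0.16 after filterByExpr and TMM scaling, the 6 Gli1 libraries alone and the 23 Pdgfra libraries together. A gene was called at an adjusted p (Benjamini-Hochberg, over all genes tested) under 0.05. CPM values, ratios and ranks were computed in Python 3.11.15. No replicate pair of the 36 within groups held identical counts. The median difference over all genes was -0.61 in Ctnnb1FF, -0.35 in Gli2FFGli3FF and -0.22 in Gli3FF on the log2 scale, and member differences are to be read relative to it. Intervals of counting are not given, because the number of animals limits precision at these depths. The tests were also tried on simulated data.

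The members, the gene lists and the tests were chosen with earlier results of these data known. Named genes are the members, up to 4 called genes of each list per comparison with the smallest p, Clock, Cry1, Cry2, Ciart, Nfil3, Bhlhe40, Bhlhe41 and Rora, the targeted genes and Ptch1, and the 5 most and 5 least like Dbp and Arntl. A further gene of the rule is not reported here. Other settings were RLE scaling, DESeq2 1.42.0, no low-count filter, removal of the ribosomal RNA locus, the replicate number as a block, subsets of the wild type controls, a fit of only the groups compared, and leaving out each library.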

Additional observations from a re-analysis of the deposited data

Results flagged for a closer look

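In groups of 4 or 5 libraries, Dixon's gap flagged 3 of the 30 sets of levels of the 10 clock genes. This measure is the gap of an extreme library to the next, over the range of its group. The cutoff depends on group size, at a chance rate of 1 in 20 per set, and sets with a smaller gap are not listed. The flagged ones are given as values, with no p-value. Dbp in Gli2FFGli3FF replicate 3 was at 0.491 CPM, and the other libraries of that group were at 0 to 0.0378 CPM. Per2 in Gli2FFGli3FF replicate 2 was at 8.96 CPM, against 3.13 to 3.51 CPM in the rest. Per1 in wild type replicate 1 was at 34.2 CPM, against 27.2 to 28.9 CPM in the other wild type libraries. The SmoFF levels that divide that group did not meet this measure, because 2 libraries lie on each side.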

How the results depend on the processing

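Of 525 differences of the 10 clock genes under other settings, 511 stayed within 1 SD of the replicates of the value given, and of 534 with 1 library left out, 523 did. This SD is wide where replicates are divided, as in SmoFF, so staying within it says little there. In SmoFF and in Gli3FF no member changed sign under any setting or left-out library. Each SmoFF fit without 1 library still held a library with high Nr1d1, so a kept sign does not speak to the division of that group. Small differences changed sign elsewhere: Arntl in Gli2FF was 0.23 with the replicate block and -0.36 without it, and Nr1d2 in SmoM2 was -0.23 with the block.

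Counts of calls moved more. After ligation 2326 genes were called, 1493 without the low-count filter, 428 with the replicate block and 3542 with DESeq2, and the block left 0 of the other clock genes called. In SmoFF, 377 became 913 without the filter, 1111 with DESeq2, 1122 with wild type 1 to 3 as controls, 19 with wild type 4 and 5, and 151 with only the 2 groups, and DESeq2 called 1 other clock gene. In SmoM2, 50 became 394 without the filter, 283 with DESeq2, 19 with wild type 1 to 3, 186 with wild type 4 and 5, and 266 with only the 2 groups. In Gli2FF, 1423 became 2662 with DESeq2, 200 with wild type 4 and 5, and 2343 with only the 2 groups. Its 3 other clock genes became 6 with RLE scaling, 8 without the filter, 10 with DESeq2, 0 with wild type 4 and 5, and 7 with only the 2 groups. In Gli3FF, 1085 became 1654 without the filter, 2380 with DESeq2 and 485 with wild type 4 and 5. Its 4 other clock genes became 8 without the filter, 8 with DESeq2, 2 with wild type 1 to 3, 1 with wild type 4 and 5, and 9 with only the 2 groups. In Gli2FFGli3FF, 4183 became 2213 with wild type 4 and 5. Its 6 other clock genes became 10 with DESeq2, 3 with wild type 1 to 3, 2 with wild type 4 and 5, and 13 with only the 2 groups. The cause of these shifts was not tested.

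With each library left out in turn, calls ranged from 377 to 2383 after ligation, 121 to 685 in SmoFF, 17 to 36 in SmoM2, 3050 to 4594 in Ctnnb1FF, 179 to 1506 in Gli2FF, 319 to 976 in Gli3FF and 2960 to 3619 in Gli2FFGli3FF. Other clock genes called ranged from 0 to 5, 0 to 0, 0 to 0, 3 to 7, 0 to 3, 1 to 4 and 3 to 6 in the same order. Where 1 library of a group was left, it was taken to vary like the other groups.

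Replicate numbers did not pair the libraries: deviations of same-numbered libraries correlated at -0.39 to 0.26 over 5000 genes, and 2 of 21 libraries correlated best with their own number. The block moved the other clock genes called in Ctnnb1FF from 7 to 4, and moved the counts of genes called by no more than 1.5 times in the genotype comparisons.

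The number of animals (2 in Gli2FF and Gli3FF) and counts under 60 for Dbp in wild type limit the sizes given.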
